A study of Homo sapiens with 6 samples.

Results

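Expression of the SR protein and hnRNP genes, the main families of RNA-binding proteins that steer pre-mRNA splicing, was examined in Rh30 cells treated with YK-4-279. Genes were taken by symbol, as SRSF followed by a number or HNRNP followed by letters and numbers, with pseudogene copies left out. The rule found 38 genes among 35268 named genes, of which 12 were SR genes and 26 were hnRNP genes. In all, 33 were tested, each with 133 to 46881 reads in every library. The other 5 were not, since HNRNPA1L2, HNRNPCL1, HNRNPCL2 and HNRNPCL4 had no read in any library and HNRNPCL3 had 1 read, in YK-4-279 replicate 3.

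Rh30 is an established cell line of fusion-positive rhabdomyosarcoma, a childhood tumor of the skeletal muscle lineage that carries the PAX3-FOXO1 fusion protein, and all 6 libraries come from this 1 line. YK-4-279 is a small molecule known as an inhibitor of ETS transcription factors. The comparison asks how gene expression differs after 24 hours in 1 µM YK-4-279, given in DMSO, from that in DMSO alone, with 3 polyadenylated RNA libraries in each group. The samples are described as triplicates without saying whether they came from separate cultures, so p-values measure the spread between these samples, which may be technical. Libraries held 16724650 to 24677433 reads on named genes. DMSO replicate 1, the shallowest, stood apart from the others, with a mean correlation to the others of 0.989 (the rest had 0.992 or more), and with 6.05% of reads on mitochondrial genes against 4.74% to 5.03%. Results are therefore given with and without it. The muscle regulators MYOD1 and MYOG had means of 36993 and 14926 normalized counts over the 6 libraries, and of the 6 muscle lineage markers only MYF6 was near 0, at 0.558. Markers of blood, endothelial, epithelial and liver cells (7 genes) together held 76 to 139 reads per library, and KRT5 had none. Values are normalized counts, meaning reads divided by a factor for the depth of each library, and a log2 fold change is the difference of mean log2(normalized count + 1), YK-4-279 minus DMSO.

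SR proteins carry RNA recognition motifs and a tail rich in arginine and serine. They bind enhancer sequences in exons, recruit U1 and U2 snRNPs to the splice sites, and are controlled by phosphorylation of the tail. hnRNP proteins coat nascent transcripts, and many of them bind silencer sequences and oppose the inclusion of exons, so that the balance of both families sets the choice of splice sites. Many genes of both families limit their own expression through alternative exons that send the transcript to nonsense-mediated decay. Muscle cells are known for an extensive program of alternative splicing during differentiation.

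After treatment, 2 of the 33 genes tested changed, and both fell. HNRNPDL, a relative of the AU-rich element binding protein hnRNP D, fell by 18.6%, and SRSF10, a splicing repressor when its tail is dephosphorylated, fell by 20.0%. The SR genes SRSF6, SRSF2 and SRSF1 had log2 fold changes of -0.25, -0.30 and -0.27 and did not pass limma's threshold with all 6 libraries, while DESeq2 called all 3 lower (DESeq2 adjusted p = 0.0268, 0.0251 and 0.0393). No gene of either family rose by limma, edgeR or DESeq2, and none was higher at an unadjusted limma p under 0.05. Limma with Benjamini-Hochberg adjustment over 13930 genes, at an adjusted p under 0.05, called 2 of 33 members (6.06%), against 3.41% of all genes tested. By direction, 2.15% of all genes were called lower and 1.26% higher (299 and 176 genes, against 145 and 132 with quantile normalization). The count of members thus lies close to the background.

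HNRNPDL (chr4:82422565-82430462, minus strand, hg38) had 8638, 8241 and 8274 normalized counts in the DMSO libraries and 6727, 6729 and 7011 in the YK-4-279 libraries. Every treated library lay below every DMSO library, and the means, 8384 ± 220.5 and 6822 ± 163 (SD, n = 3 each), differed by more than the spread within either group. The fitted log2 fold change was -0.30, with a 95% confidence interval of -0.41 to -0.18 and a limma adjusted p of 0.0106. SRSF10 (chr1:23964347-23980927, minus strand) had 7099, 5898 and 6150 normalized counts in DMSO and 5054, 4874 and 5389 in YK-4-279. The groups again did not overlap, but DMSO replicate 1 was the highest library by a wide margin. The fitted log2 fold change was -0.32, with a 95% confidence interval of -0.47 to -0.16 and a limma adjusted p of 0.0288, and without DMSO replicate 1 it was -0.24. Neither gene shares exon sequence of its canonical transcript with another annotated gene. Both calls were lost when any one of the 3 YK-4-279 libraries was left out (limma adjusted p = 0.0661 to 0.108 for HNRNPDL and 0.0928 to 0.183 for SRSF10), where 19 to 46 genes were called in all. The log2 fold changes were then -0.32 to -0.29 for HNRNPDL and -0.36 to -0.29 for SRSF10. Both calls were also lost in limma without the trend in the variance prior (adjusted p = 0.109 and 0.186). SRSF10 alone missed the threshold with quantile normalization (limma adjusted p = 0.0840) and without DMSO replicate 3 (limma adjusted p = 0.0540).

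ETS factors recognize DNA around a GGAA core, and the promoters of the members were therefore searched for the hexamer CGGAAG or its reverse complement CTTCCG. RefSeq windows (GRCh38.p14) from 250 bases before to 50 bases after an annotated start were found for 34 of the 38 genes, and SRSF2, HNRNPA1, HNRNPA1L3 and HNRNPCL3 had no entry. A gene was counted if any of its windows held the hexamer, and genes with several annotated starts have several windows. The shares were not adjusted for the number of windows. The hexamer was present in 15 of these 34 (44.1%), against 22.6% of all 27305 genes with a window. Among genes tested it was in 14 of 30 members (46.7%), against 37.5% of all 10946 with a window. It was in 5 of 11 SR genes and 10 of 23 hnRNP genes. Among members whose treated libraries all lay below the DMSO libraries it was present in 5 of 10, and among those whose groups overlapped in 9 of 20. A match of letters is not a binding site, and binding was not measured in these libraries. From separate chromatin profiling at this dose, the study reported a loss of ETS1 in another line, Rh41, and no such loss in Rh30.

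The 100 bases before a start are shown for HNRNPDL, which changed and has no match in them, and for SRSF4 and HNRNPH1, which have one there and were not called with all 6 libraries (SRSF4 was called lower without DMSO replicate 1). HNRNPDL has 2 annotated starts and HNRNPH1 has 4, and the outermost is shown for each. No window of HNRNPDL holds the hexamer, and the window of SRSF10, the other called member, does not hold it either. Of the other starts of HNRNPH1 the innermost has a match, in the 100 bases before it (chr5:179623402-179623501). They are read 5′ to 3′ on the strand of the gene, with the hexamer in capitals, from chr4:82430463-82430562, chr1:29181901-29182000 and chr5:179634785-179634884 (each minus strand, GRCh38.p14).
HNRNPDL: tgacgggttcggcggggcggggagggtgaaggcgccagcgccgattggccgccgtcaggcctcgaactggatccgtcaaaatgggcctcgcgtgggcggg
SRSF4: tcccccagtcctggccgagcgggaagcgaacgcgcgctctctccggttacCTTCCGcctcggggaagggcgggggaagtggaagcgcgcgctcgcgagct
HNRNPH1: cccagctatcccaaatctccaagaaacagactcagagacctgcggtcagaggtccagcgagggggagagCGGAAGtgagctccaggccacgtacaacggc

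A further set of matches lies in genes with lower values in every treated library, and 30 bases around a match are shown to compare their flanks. These genes were picked for holding a match, and none of them was called with all 6 libraries. The matches come from SRSF1 (chr17:58007286-58007315), SRSF7 (chr2:38751463-38751492), HNRNPLL (chr2:38602933-38602962) and HNRNPUL2 (chr11:62727670-62727699), all on the minus strand. They begin 57, 119, 22 and 230 bases before a RefSeq start. A further match in HNRNPUL2 (chr11:62727572-62727601) begins 132 bases before the start. SRSF7 has 2 annotated starts, and its match lies 119 bases before the inner one and 14 bases past the outer one. By the GENCODE v44 positions SRSF1 and HNRNPLL begin further out, so that their matches lie inside the gene. The hexamer faces either way in this set, reading CGGAAG in HNRNPLL, CTTCCG in SRSF1 and SRSF7, and once each way in HNRNPUL2.
SRSF1: aatcgctgtttcCTTCCGcttctcttcctc
SRSF7: tctcttcagttcCTTCCGcgtcgtttcttg
HNRNPLL: aggagggaagacCGGAAGccacggttgcgt
HNRNPUL2, outer: atggaagtcagaCGGAAGtaagggtggtgg
HNRNPUL2, inner: ggcgcgcacacgCTTCCGtgctacgaggca

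As a group, the SR genes were mostly lower in treated cells. Of 12 tested, 10 had a log2 fold change below 0, with a median of -0.14, and 1 was called. Over all genes tested 52% had a log2 fold change below 0, with a median of -0.01. In 7 of the 12 every YK-4-279 library lay below every DMSO library, an arrangement found in 15.1% of all genes, and in none did every YK-4-279 library lie above, against 10.9% of all genes. An unadjusted limma p under 0.05 was found in 6 SR genes, all of them lower, and a lower value at this p in 11% of all genes. Depending on the scaling of the libraries or the library left out, 9 to 11 of the 12 were below 0, and the median ran to -0.06 after removal of trends on GC content and length. Summed over the SR genes, the DMSO libraries held 53783, 48971 and 49895 normalized counts and the YK-4-279 libraries 43557, 44808 and 46186. The highest sum was that of DMSO replicate 1, and the groups did not overlap with or without it. Bulk libraries cannot tell less RNA per cell from a different mix of cells. Of the 6 muscle lineage markers 5 were tested and none was called by limma with all 6 libraries, and the summed normalized counts of the 6 overlapped, at 60589.5 to 69953 in DMSO and 66512 to 69893 in YK-4-279. MYOG and DES were higher in every treated library, by 0.23 and 0.14 on the log2 scale (adjusted p = 0.224 and 0.255 by limma), and by 0.08 each without DMSO replicate 1. MYOG was called higher once trends on GC content and length were removed (limma adjusted p = 0.0276). The part of these markers in the SR values was not tested.

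SRSF6, a regulator of tau and lamin splicing, had 6244, 5398 and 5528 normalized counts in DMSO and 4639, 4713 and 5057 in YK-4-279. The treated libraries were all lower, with a log2 fold change of -0.25 (95% confidence interval -0.39 to -0.11, limma adjusted p = 0.0553). SRSF2, also known as SC35, an exon enhancer binding protein found in nuclear speckles, had 6873, 5291 and 5471 in DMSO and 4511, 4667 and 5024 in YK-4-279. Here the fitted value was -0.30, with a 95% confidence interval of -0.49 to -0.12 and a limma adjusted p of 0.0726. SRSF1, the founding member of the family and a known proto-oncogene, had 3384, 2764 and 2800 in DMSO and 2362, 2493 and 2542 in YK-4-279, a log2 fold change of -0.27 (95% confidence interval -0.43 to -0.10, limma adjusted p = 0.0750). In all 3 genes DMSO replicate 1 was the highest library, and DMSO replicates 2 and 3 lay close to each other and still above every treated library. In SRSF2, 30.1% of the bases of the canonical transcript are also exon of MFSD11 on the other strand, a gene with a mean of 572 normalized counts. Part of the SRSF1 and SRSF6 transcripts is shared with unnamed protein-coding models on the same strand. The counting settings for strand and for shared reads are not given in the sources used here, so these values carry that uncertainty. In all, 14 of the 33 tested members share exon bases with another annotated gene.

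SRSF3, which also acts in mRNA export and was the SR gene with the highest mean, had 10711, 10017 and 9950 normalized counts in DMSO and 8840, 9638 and 9236 in YK-4-279. The groups did not overlap, and the log2 fold change was -0.15 (limma adjusted p = 0.188). SRSF7, another shuttling export adapter, had a narrow spread, at 5363, 5456 and 5416 in DMSO and 4835, 5021 and 4945 in YK-4-279 (log2 fold change -0.13, limma adjusted p = 0.193). SRSF4, one of the largest family members by its long tail, had 4029, 4158 and 4204 in DMSO and 3741, 3798 and 3948 in YK-4-279 (log2 fold change -0.11, limma adjusted p = 0.306). The mean of the treated libraries differed from the DMSO mean by -9.67% in SRSF3, -8.83% in SRSF7 and -7.29% in SRSF4. SRSF11 had a log2 fold change of -0.13 (-0.08 without DMSO replicate 1) and SRSF5 of -0.04, with overlapping groups.

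The remaining SR genes had few reads or a deviating DMSO library. SRSF9 had 924 normalized counts in DMSO replicate 1 against 1481 and 1461 in replicates 2 and 3, and 1375, 1420 and 1325 in YK-4-279. Its log2 fold change of 0.12 (limma adjusted p = 0.667) became -0.10 without DMSO replicate 1. GATC lies on the other strand over 42.6% of its canonical transcript, with a mean of 570 normalized counts. SRSF8, which derives from a retrocopy of SRSF2, had 332 to 394 in DMSO and 372 to 425 in YK-4-279 (log2 fold change 0.15, limma adjusted p = 0.439). SRSF12, a relative of SRSF10, had 173 to 213 in DMSO and 164 to 185 in YK-4-279 (log2 fold change -0.14, limma adjusted p = 0.564). This value ran from -0.21 without DMSO replicate 1, where the groups no longer overlapped, to -0.06 without DMSO replicate 2.

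**Figure D1:**
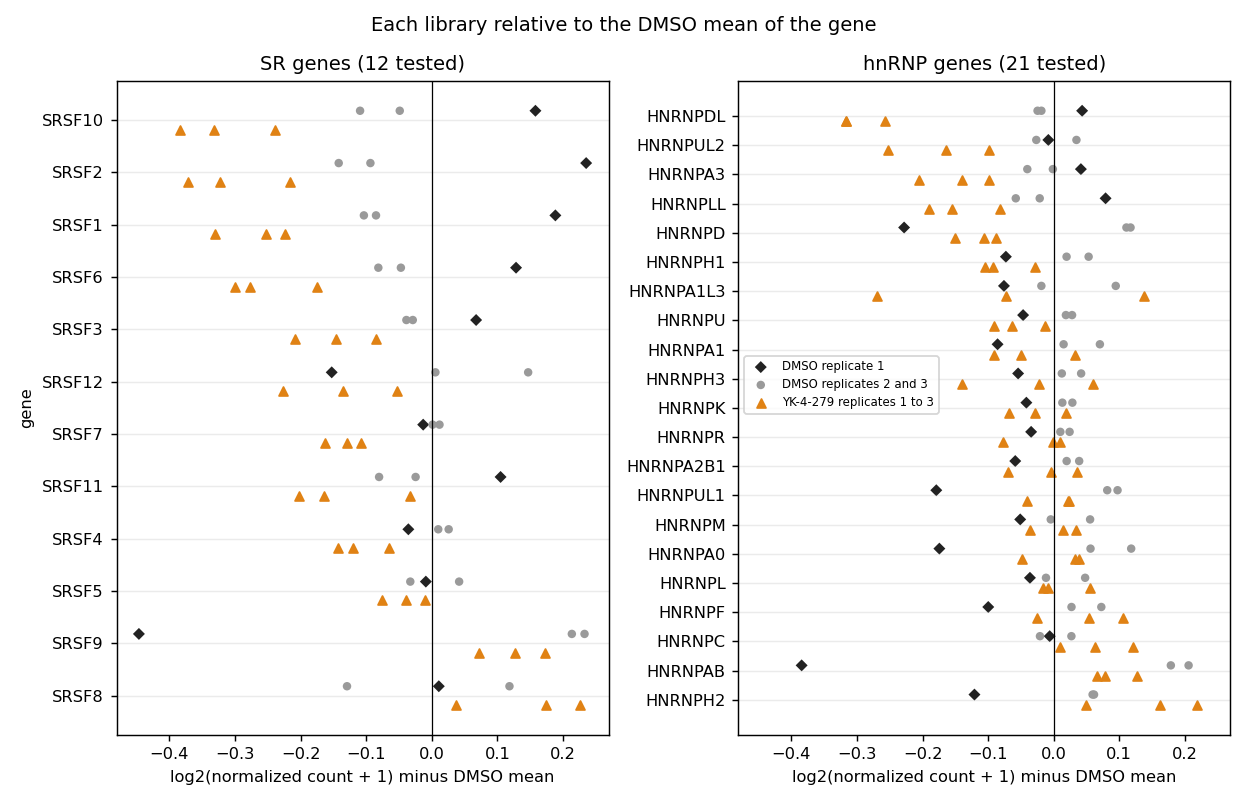
Each point is a library, placed by its log2(normalized count + 1) minus the mean of the 3 DMSO libraries for that gene, with SR genes on the left and hnRNP genes on the right, ordered by log2 fold change. In 7 SR and 4 hnRNP genes all 3 YK-4-279 libraries (triangles) lie left of every DMSO library, and DMSO replicate 1 (diamonds) lies far from replicates 2 and 3 (circles) in genes such as SRSF9 and HNRNPAB.

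The hnRNP genes lay on both sides of 0. Of 21 tested, 13 had a log2 fold change below 0 with the deposited scaling, but 8 did with quantile normalization and 10 once trends on GC content and length were removed from the libraries, so that the direction depended on the setting. Without DMSO replicate 1, 19 of 21 were below 0, with a median of -0.08, where 7431 of all 13930 genes tested were below 0. In 11 of 21 (52.4%, against 22.9% of all genes) every treated library then lay below the remaining DMSO libraries. With all 6 libraries the median was -0.03, and 1 gene was called, HNRNPDL. In 4 genes, HNRNPDL, HNRNPA3, HNRNPLL and HNRNPUL2, every YK-4-279 library lay below every DMSO library (19% of 21, against 15.1% of all genes). The difference between the SR and hnRNP families was not tested. Summed normalized counts were 222817, 242242 and 239701 in DMSO and 222887, 235025 and 227800 in YK-4-279, so that the groups overlapped, with DMSO replicate 1 at the lowest sum, and did not overlap without it. Per 100 hnRNP counts the SR genes held 24.1, 20.2 and 20.8 in DMSO and 19.5, 19.1 and 20.3 in YK-4-279. The highest value is that of DMSO replicate 1, and the groups overlapped with or without it.

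Within the A and D group, which holds the classical exon silencer proteins, HNRNPA1 had the highest mean of all members. It had 36504, 40673 and 39143 normalized counts in DMSO and 36376, 39601 and 37404 in YK-4-279 (log2 fold change -0.04, 95% confidence interval -0.17 to 0.09). HNRNPA3, close in sequence to HNRNPA1, had 16441, 15535 and 15961 in DMSO and 13862, 14923 and 14500 in YK-4-279 (log2 fold change -0.15, limma adjusted p = 0.163), without overlap of the groups. Exons of the antisense gene NFE2L2 cover 59.8% of its canonical transcript, at a mean of 1146 normalized counts. HNRNPD, which binds AU-rich elements and speeds the decay of mRNAs that hold them, had 11459 normalized counts in DMSO replicate 1 but 14558 and 14495 in the others. The YK-4-279 libraries had 12098, 12635 and 12470, between these values, and the log2 fold change was -0.11 (limma adjusted p = 0.471). HNRNPAB had the same shape, with 6431 in DMSO replicate 1, 9681 and 9501 in the others and 8788 to 9171 in YK-4-279. HNRNPA2B1 and HNRNPA0 differed by -0.01 and 0.01 on the log2 scale, and HNRNPA1L3 by -0.07.

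HNRNPC, which forms tetramers on uridine tracts, had 15509, 15869 and 15350 normalized counts in DMSO and 15678, 16932 and 16262 in YK-4-279 (log2 fold change 0.06, 95% confidence interval -0.05 to 0.18). In the F and H group, whose proteins bind runs of guanines, HNRNPH1 had the highest mean, at 12870, 13723 and 14046 in DMSO and 12588, 12700 and 13273 in YK-4-279 (log2 fold change -0.08, 95% confidence interval -0.19 to 0.04). HNRNPH2, the member on chromosome X, had 1141 to 1295 in DMSO and 1285 to 1445 in YK-4-279 (log2 fold change 0.14, limma adjusted p = 0.320, and 0.08 without DMSO replicate 1). HNRNPH3 and HNRNPF had -0.03 and 0.04.

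HNRNPK, which binds cytosine-rich RNA and DNA, had 16639, 17468 and 17283 in DMSO and 16331, 17342 and 16785 in YK-4-279 (log2 fold change -0.03, 95% confidence interval -0.14 to 0.09). HNRNPM, HNRNPR and HNRNPL, the last known for binding CA repeats, were within 0.03 of 0 on the log2 scale. Their intervals reached from -0.14 to 0.13, so that larger differences lie outside them. HNRNPLL, a paralog of HNRNPL known for CD45 exon skipping in lymphocytes, had 1711 to 1881 in DMSO and 1560 to 1683 in YK-4-279 without overlap (log2 fold change -0.14, limma adjusted p = 0.260). In the U group, HNRNPU, a scaffold protein that binds RNA and chromatin, had 19019, 19899 and 20029 in DMSO and 18437, 19474 and 18803 in YK-4-279 (log2 fold change -0.06, limma adjusted p = 0.612). HNRNPUL2 had 972 to 1015 in DMSO and 831 to 925 in YK-4-279 without overlap (log2 fold change -0.17, limma adjusted p = 0.209). A readthrough gene model shares 45.9% of its canonical transcript and is listed at 0 in the deposited values. HNRNPUL1 had a log2 fold change of 0.00.

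**Figure D2:**
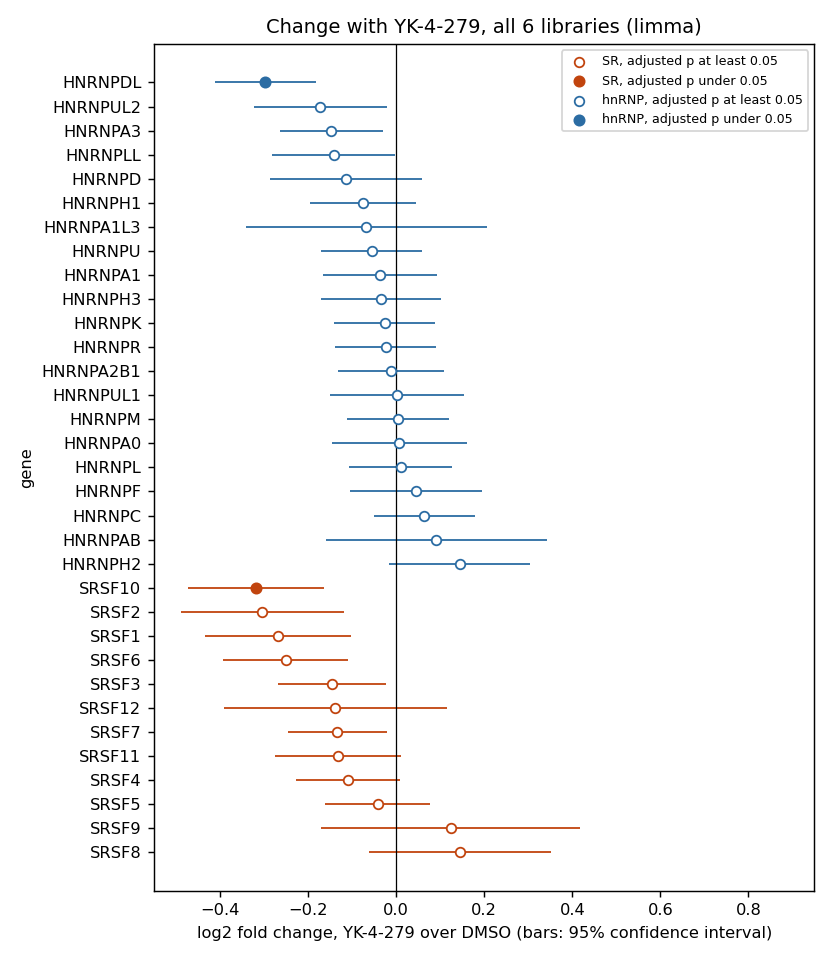
Log2 fold change of each of the 33 tested genes, YK-4-279 over DMSO, with its 95% confidence interval from limma (bars), hnRNP genes above and SR genes below. Filled points have an adjusted p under 0.05 and are HNRNPDL and SRSF10, at -0.30 and -0.32, and 10 of 12 SR genes lie left of 0, as 9 to 11 do under other scalings or with a library left out, while 13 of 21 hnRNP genes do, as 8 to 19 do under these settings.

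The calls among the members depended on DMSO replicate 1. This library was the highest of the DMSO libraries in 9 of the 33 genes and the lowest in 20, and it differed from the mean of the other DMSO libraries by over 0.2 on the log2 scale in 9. It was lower by 0.67 in SRSF9, 0.58 in HNRNPAB and 0.34 in HNRNPD, and higher by 0.35 in SRSF2, 0.28 in SRSF1 and 0.24 in SRSF10. Across the 33 genes, its deviation had a Pearson correlation of -0.41 with the GC content of the canonical transcript, as a description, since all points share the same libraries. The part of library composition in these differences was not tested.

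Without DMSO replicate 1, 10 of the 33 members were called (30.3%), all lower, where 8.46% of all genes were called lower. SRSF10 and HNRNPDL kept their calls, and SRSF1, SRSF2, SRSF4, SRSF6, SRSF7, HNRNPA3, HNRNPD and HNRNPUL2 gained one. The log2 fold changes were -0.24 for SRSF10, -0.28 for HNRNPDL, -0.17 for SRSF1, -0.19 for both SRSF2 and SRSF6, -0.13 for SRSF4 and -0.14 for SRSF7. They were -0.13 for HNRNPA3, -0.23 for HNRNPD and -0.18 for HNRNPUL2. Thus the log2 fold changes of SRSF1, SRSF2, SRSF6 and SRSF10 were smaller in size without this library and still passed the threshold, with DMSO libraries that lay closer together. In 20 of 33 members the groups then did not overlap, with YK-4-279 lower, against 22.9% of all genes. A log2 fold change below 0 was then found in 7431 of all 13930 genes tested and in 30 of 33 members. The exceptions were SRSF8, HNRNPC and HNRNPH2.

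The same 5 members were called in 3 other analyses, HNRNPDL, SRSF1, SRSF2, SRSF6 and SRSF10, all lower. These were DESeq2 on whole reads (3.36% of the genes given an adjusted p were called lower), the fit after removal of trends on GC content and transcript length (6.86%) and the fit without DMSO replicate 2 (2.96%). The 5 calls are 15.2% of the members tested. With the trends removed, SRSF1 and SRSF6 had log2 fold changes of -0.18 and -0.16. SRSF4 and HNRNPUL2 did not come closer to 0, at -0.11 and -0.18, and were not called (limma adjusted p = 0.0536 and 0.0523). Some other members came closer to 0 and were not called, with log2 fold changes of -0.05, -0.05 and -0.06 for HNRNPA3, HNRNPD and SRSF7 (limma adjusted p = 0.454, 0.765 and 0.459) and of -0.06 and -0.05 for SRSF3 and HNRNPLL (limma adjusted p = 0.359 and 0.601). SRSF11 and SRSF12 then had -0.05 and -0.04.

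**Figure D3:**
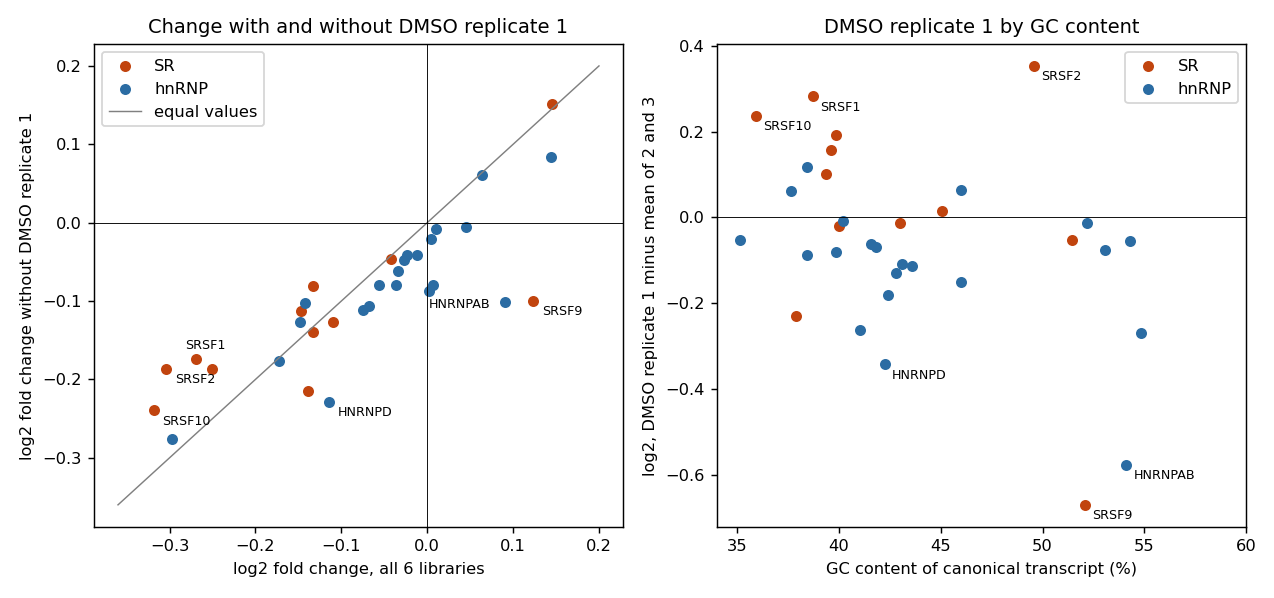
Left, the log2 fold change of each tested gene with all 6 libraries (x axis) against that without DMSO replicate 1 (y axis), with a line of equal values. Right, GC content of the canonical transcript in percent against the log2 difference of DMSO replicate 1 from the mean of replicates 2 and 3, which runs from -0.67 in SRSF9 to 0.35 in SRSF2.

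By level per kilobase of canonical transcript, the members spanned a wide range in Rh30 cells. HNRNPA1 was highest at 10225 normalized counts per kilobase, followed by HNRNPA2B1 at 7702, HNRNPH1 at 5893, HNRNPK at 5876 and HNRNPC at 5034. HNRNPH1 and HNRNPK did not differ beyond the spread between libraries. The highest SR gene was SRSF2 at 2811, followed by SRSF5 at 2446 and SRSF3 at 2302. The lowest were SRSF12 at 51.2, SRSF8 at 88.9 and HNRNPA1L3 at 90.1. Per gene, the median member had 5608 normalized counts, against 534 for all genes tested. Reads assigned to processed copies were few, since the 46 pseudogene rows left out summed to at most 0.367% of their parent gene (HNRNPA3), and 14 copies of HNRNPA1 to 0.235%.

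**Figure D4:**
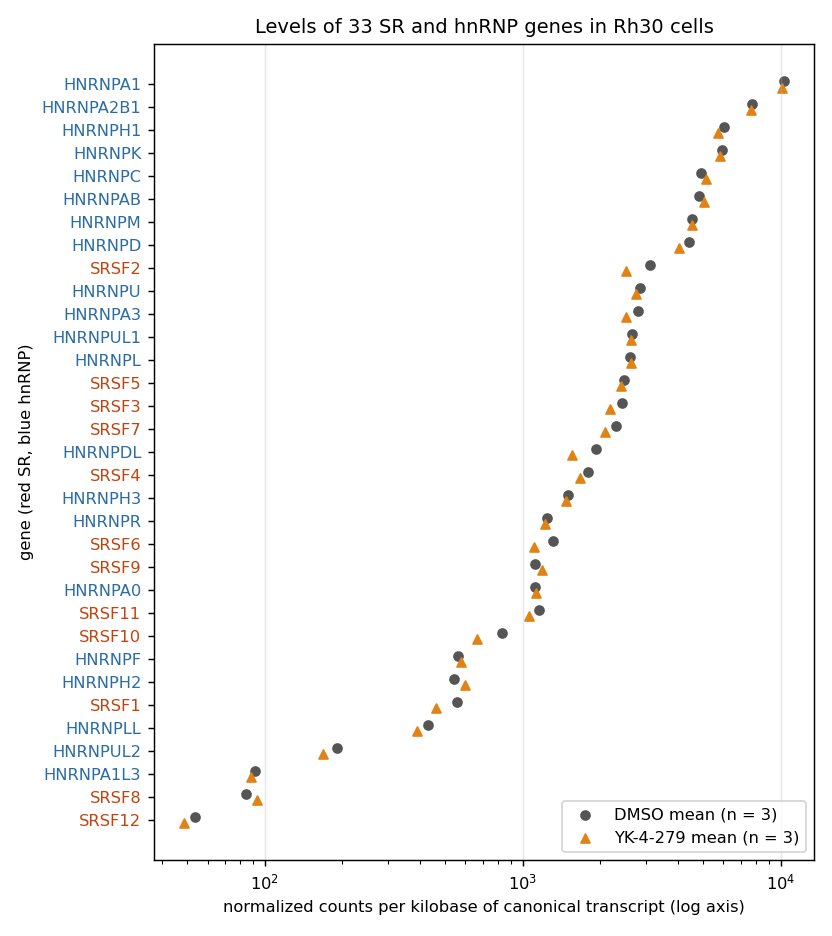
Mean normalized counts per kilobase of canonical transcript for the 33 tested genes, on a log axis, in DMSO (circles) and YK-4-279 (triangles), 3 libraries each. Levels run from 51.2 for SRSF12 to 10225 for HNRNPA1, and the means of both groups lie close together in most genes.

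Many members are annotated with transcripts subject to nonsense-mediated decay. In GENCODE v44, 26 of the 33 tested members (78.8%) have at least 1 such transcript, against 46.9% of 12577 tested protein-coding genes. HNRNPDL has 4 among 10 annotated transcripts and SRSF10 has 2 among 16. The deposited values are per gene, so productive and decay-targeted transcripts of a gene cannot be told apart, and the inclusion of alternative exons was not analysed here.

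Other genes of the splicing machinery showed few calls with all 6 libraries. Among 9 kinases of SR proteins and their importer, 14 SR-related proteins, 8 hnRNP proteins under other symbols, 21 proteins of the U1 and U2 snRNPs, 10 proteins of U5 and the tri-snRNP and 10 factors of nonsense-mediated decay, no gene was called by limma. At an unadjusted p under 0.05 these lists held 0, 2, 4, 1, 2 and 0 genes, against 18.7% of all genes. EdgeR called none of them either, and DESeq2 called PRPF6, a tri-snRNP protein, at a log2 fold change of 0.22 (DESeq2 adjusted p = 0.0238). Their medians lay between -0.09, for the hnRNP proteins under other symbols, and 0.01, for the decay factors. The hnRNP proteins under other symbols had 7 of 8 below 0. PTBP1, the polypyrimidine tract binding protein, was highest of them and had a log2 fold change of -0.12 (limma adjusted p = 0.263). These calls depended on the setting, and the genes that follow were named after their values were seen. Once trends on GC content and length were removed, limma called 3 of the 8 lower, PTBP1, PCBP1 and RBMX (adjusted p = 0.0063, 0.0257 and 0.0181, where 6.86% of all genes were called lower), and each was also called lower without DMSO replicate 1. Without that library 1 SR-related gene, TRA2B, and 3 U1 and U2 snRNP genes, SNRPA, SF3B3 and PHF5A, were called lower, PRPF6 was called higher, and no kinase or decay factor was called. With the trends removed, SF3B3 and SF3B4 were called lower and SNRPB2 and PRPF6 higher. Of all genes, 8.46% were called lower and 4.62% higher without DMSO replicate 1, and 4.96% were called higher with the trends removed.

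In the remaining lists 2 of 20 genes changed, where 3.41% of all genes were called. In the Sm core, the ring of proteins around the spliceosomal snRNAs, SNRPD3 fell from 2123, 1944 and 1921 normalized counts in DMSO to 1613, 1722 and 1615 in YK-4-279 (log2 fold change -0.27, limma adjusted p = 0.0373). Of the 8 Sm core genes 7 were below 0 (6 after removal of trends on GC content and length), and SNRPB, the highest, had a log2 fold change of -0.07. Without DMSO replicate 1, limma called SNRPB and SNRPG lower as well (adjusted p = 0.0115 and 0.0499). Among 12 regulators of muscle splicing, MBNL3, a muscleblind protein linked to the undifferentiated myoblast state, fell from 1574, 1193 and 1277 to 1034, 974 and 1064 (log2 fold change -0.39, limma adjusted p = 0.0380). The other 11 were not called by limma with all 6 libraries, and QKI, the highest, had a log2 fold change of -0.01. DESeq2 called RBM20, a regulator of titin splicing, higher, at a log2 fold change of 0.24 (DESeq2 adjusted p = 0.0459). Without DMSO replicate 1, limma called RBM20 and MBNL2 higher (adjusted p = 0.0019 and 0.0012) and RBM38 lower (adjusted p = 0.0075), besides MBNL3, where 4.62% of all genes were called higher and 8.46% lower. RBM20, MBNL2 and RBM38 were named after their values were seen. Neither SNRPD3 nor MBNL3 was called once a YK-4-279 library was left out. The highest genes of the other lists were SRRM2, SF3B1, SNRNP200, UPF1 and TNPO3, the importer of SR proteins, with log2 fold changes of -0.05, -0.08, -0.01, 0.06 and -0.08.

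**Figure D5:**
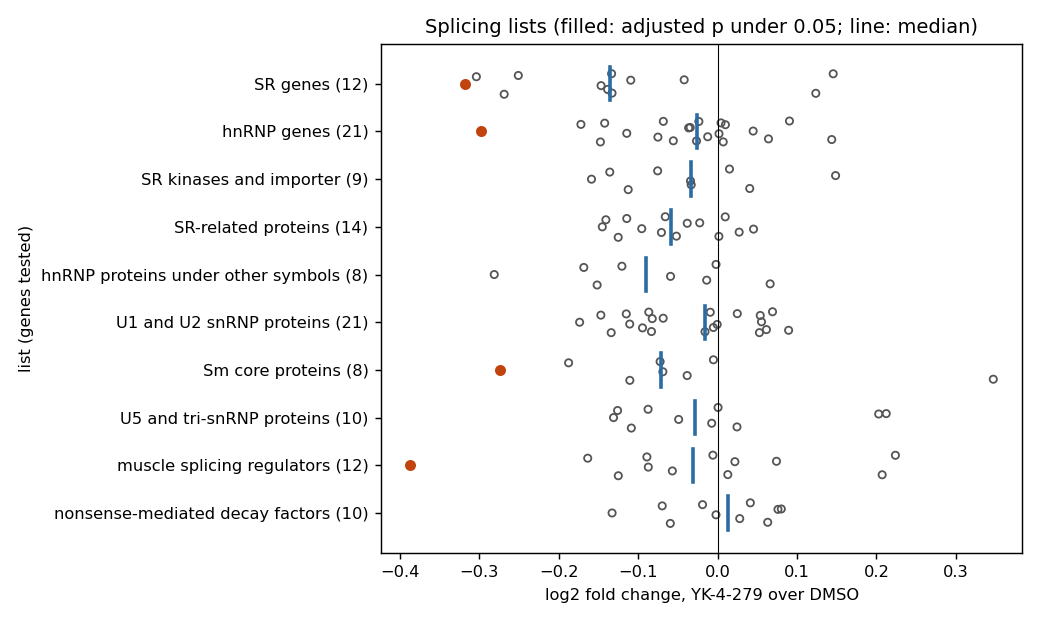
Log2 fold change, YK-4-279 over DMSO, of each gene tested (points) in the SR and hnRNP genes and in 8 further lists of splicing and decay factors, with the median of each list as a line. Filled points are the 4 genes with an adjusted p under 0.05, SRSF10, HNRNPDL, SNRPD3 and MBNL3, each below 0.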

How the data were processed

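Per the labels and the study's methods, the authors trimmed reads with BBDuk, aligned them to hg38 with STAR (2.7.9a) and counted them per gene; the annotation is not given in the sources used here. The submitters' processing notes also list DESeq2 1.44.0. The deposited values are a normalized signal, meaning counts divided by a factor of each library, and each value gave whole reads (100%, tolerance 0.001) in every library. One row without a gene name held at most 6 reads per library and was left out.

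The test was limma's (version 3.58.1, R 4.3.3), two-sided, with lmFit and a mean-dependent prior in eBayes, on log2(normalized count + 1) across 13930 genes whose mean over the libraries reached 10, with Benjamini-Hochberg adjustment over all of them and a threshold of 0.05. The pseudocount understates changes of low genes. The members and the other lists were chosen with earlier results of these data known. Described in full were, in each of 7 subgroups of the members, the gene with the highest mean, every called member, the 3 with the largest change at a mean of at least 100, and members whose call changed without DMSO replicate 1. In the 8 further lists these were the gene with the highest mean and up to 3 called genes. Tried as alternatives were pseudocounts of 0.5 and 10, no filter and a minimum mean of 100, TMM scaling, quantile normalization, eBayes with a constant prior, the replicate number as a block, removal of a smooth trend on GC content and length in each library, each library left out, and edgeR 4.0.16 and DESeq2 1.42.0 on whole reads. The code was tested on simulated data. Positions, GC content and lengths come from GENCODE v44 (hg38), and 97.6% of the genes tested had both. Promoter windows come from RefSeq (GRCh38.p14). Other short motifs were also looked at in these windows and are not reported. A result of the hnRNP proteins under other symbols without DMSO replicate 1 is not reported here.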

Additional observations from a re-analysis of the deposited data

How the results depend on the processing

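The results rest on 3 libraries per group and on the weight of DMSO replicate 1. HNRNPDL and SRSF10 had a log2 fold change below 0 in every analysis run, but neither was called without any one of the YK-4-279 libraries. HNRNPDL was called with a library left out of the DMSO group in each of 3 cases, SRSF10 in all but the case without DMSO replicate 3. Every tested member had 133 or more reads in each library. The causes of the differences between settings were not tested.

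With all libraries 475 genes were called (176 higher and 299 lower) and 2 members. Other pseudocounts, other filters, TMM scaling and edgeR called the same 2 members. Quantile normalization called 277 genes, 145 of them lower, and 1 member, HNRNPDL; the share of higher calls was 47.7% against 37.1%, the SR median -0.084 and the hnRNP median 0.031. Without the trend in eBayes 33 genes were called, 30 higher and 3 lower, and 0 members (10 members at an unadjusted p under 0.05 in the main analysis). DESeq2 called 5 members. With the GC content and length trends removed 1608 genes were called (675 higher, 933 lower) and 5 members, with an SR median of -0.058 and an hnRNP median of 0.0041. Leaving out 1 library at a time gave 19 to 1823 genes (15 to 644 higher, 4 to 1179 lower) and 0 to 10 members, with the highest counts without DMSO replicate 1 and the lowest without YK-4-279 replicate 1. The members' median then ran from -0.10 to -0.025, that of the SR genes from -0.16 to -0.12 and that of the hnRNP genes from -0.079 to -0.0053.

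Same-numbered libraries did not deviate together (correlations -0.098, -0.027 and -0.027), so the numbers were not taken as pairs. With the replicate block 180 genes were called (79 higher and 101 lower) and 1 member, HNRNPDL, while SRSF10 had an adjusted p of 0.0511.

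The sign of the log2 fold change of members near 0 changed with the setting. HNRNPA2B1 had 0.0061 with TMM scaling, 0.0056 with edgeR and 0.0016 with DESeq2. Quantile normalization gave 0.017 for SRSF5, 0.041 for HNRNPA2B1, 0.031 for HNRNPH3, 0.031 for HNRNPK, 0.046 for HNRNPR and 0.011 for HNRNPU. Removal of the GC content and length trends gave 0.016 for SRSF5, 0.029 for HNRNPA1, 0.081 for HNRNPA2B1, 0.041 for HNRNPH3, 0.040 for HNRNPK, 0.070 for HNRNPR, 0.0041 for HNRNPU, -0.013 for HNRNPM, -0.015 for HNRNPL and -0.017 for HNRNPUL1. With 1 library left out the log2 fold change ran from -0.10 to 0.24 for SRSF9, -0.042 to 0.016 for HNRNPA2B1, -0.080 to 0.066 for HNRNPA0, -0.10 to 0.19 for HNRNPAB, -0.17 to 0.032 for HNRNPA1L3 and -0.081 to 0.018 for HNRNPH3. It ran from -0.0050 to 0.081 for HNRNPF, -0.021 to 0.032 for HNRNPM, -0.041 to 0.0037 for HNRNPR, -0.013 to 0.034 for HNRNPL and -0.088 to 0.051 for HNRNPUL1.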
